A study of Homo sapiens with 8 samples.

Results

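The members described here are the 4 libraries of the outer mitochondrial membrane (OMM) experiment, out of 8 libraries in the series, with all 60664 genes of their count table. They were taken by their column names: labelled libraries 2 and 3 against control libraries 3 and 4. All come from HEK293T, an established human embryonic kidney line, carrying the peroxidase APEX2 at the cytosolic face of mitochondria. In the labelled group APEX2 tagged nearby RNA with biotin, whereas the control group expressed the same enzyme and went unlabelled. RNA held by streptavidin beads was made into libraries with a TruSeq kit (Stranded mRNA) that starts from polyadenylated RNA. A value compares what the beads held from labelled and from unlabelled cells, and no whole-cell RNA enters it. The release step is not settled, because the series description names TRIzol and the sample labels an RNeasy kit. The promoter driving APEX2 and the number of clones are not stated in the labels. Whether the replicates were separate cultures is not stated, and p-values therefore reflect only how much these libraries vary, possibly for technical reasons. In bulk libraries, more cells yielding an RNA and more of it per cell cannot be told apart.

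Most mitochondrial proteins are encoded in the nucleus, translated in the cytosol and imported through the outer membrane, often guided by a positively charged presequence at their start. Proteins of the secretory pathway are instead targeted to the endoplasmic reticulum (ER) while they are being made, by a hydrophobic signal peptide or membrane segment. The ER touches mitochondria at contact sites, so ribosomes on both surfaces can lie near the outer membrane. A small set of proteins, with their own rRNAs and tRNAs, is encoded by mitochondrial DNA (mtDNA) and made inside the matrix. APEX-seq at the outer membrane asks which of these RNAs lie within reach of an enzyme that faces the cytosol.

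The controls totalled 41660431 and 35165227 counts, the labelled libraries 52421161 and 34705126. Between 14356 and 16741 genes had a count in a library. A floor of 3 counts corresponded to between 0.0567 and 0.0845 CPM (counts scaled to a common library size), a limit that covers counting error only. Of 10 lineage markers expressed in HEK293T cells, 8 had counts in all 4 libraries. PAX2 and LHX1 were at 0 in control library 4 and in labelled library 3. The CPM of all 10 summed to between 1012 and 1348. Of 25 markers of blood, liver, vessel, muscle, skin and other cell types, 19 were at 0 in all 4 libraries, HBB, ALB, PTPRC and COL1A2 among them. The summed CPM of the 25 was 6.62 and 28.4 in the controls against 16.1 and 42.0 after labelling. SYT1, among them, held 220 and 607 counts in the controls against 382 and 1057 after labelling.

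Of 14438 genes tested, 151 rose with labelling, 1.05% of all tested, and 69 fell, 0.478%, so that 220 (1.52%) were called in either direction. The test was edgeR's quasi-likelihood F test with Benjamini-Hochberg adjusted p under 0.05, and every adjusted p below comes from it. The older form of the same test (legacy=TRUE), which is the default of this edgeR version, called 20 higher (0.139%) and 8 lower (0.0554%), all among the 151 and 69. Leaving out control library 3 gave 37 higher and 20 lower, and leaving out control library 4 gave 28 and 34. Without labelled library 2 they were 154 and 64, and without labelled library 3 they were 247 and 172. All 151 genes that rose were protein-coding, and 143 of them rose at least 2-fold. Both labelled libraries lay above both controls for each of the 151 and below for each of the 69. Among all tested genes that held for 3082 (21.3%) and 3243 (22.5%). The median log2 fold change of all tested genes was -0.02, or 0.07 when libraries were scaled by total count alone.

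The genes are described below by lists of what their products do, with the median log2 fold change of each list to be read against -0.02. In the lists of ER, membrane, surface and lysosomal proteins together, 61 of 616 tested members rose and 0 fell, with a median of 0.50. In the lists of nuclear-encoded mitochondrial proteins, 7 of 385 rose and 10 fell, with a median of -0.30. In the lists of other cytosolic and nuclear proteins, 1 of 670 rose and 1 fell, with a median of -0.17. Without 1 of the 4 libraries, between 17 and 75 ER, membrane and lysosomal members rose, the fewest without either control, and 3 fell without labelled library 3. The older form of the test called 11 of them higher. Of the 151 genes that rose, 69 were in a list and 82 in none.

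The start of the coding sequence is shown for genes that represent these classes, because it encodes the presequence or signal peptide where the protein has one. Each line is the first 90 bases (30 codons) of the spliced coding sequence, from GENCODE 29 on GRCh38. Capitals mark codons with T in the middle position, which encode phenylalanine, leucine, isoleucine, methionine or valine. The first group holds mitochondrial matrix proteins whose RNAs rose.
AASS: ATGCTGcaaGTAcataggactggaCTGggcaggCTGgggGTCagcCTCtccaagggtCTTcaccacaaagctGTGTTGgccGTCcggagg
PDPR: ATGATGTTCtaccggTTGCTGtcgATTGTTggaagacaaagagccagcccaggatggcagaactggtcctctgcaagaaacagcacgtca
LARS2: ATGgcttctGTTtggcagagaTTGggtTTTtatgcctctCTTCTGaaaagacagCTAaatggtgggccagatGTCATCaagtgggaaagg
The second group holds ER, secretory and surface proteins whose RNAs rose.
CANX: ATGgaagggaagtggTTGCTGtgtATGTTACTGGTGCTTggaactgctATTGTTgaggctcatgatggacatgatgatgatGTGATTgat
LMAN1: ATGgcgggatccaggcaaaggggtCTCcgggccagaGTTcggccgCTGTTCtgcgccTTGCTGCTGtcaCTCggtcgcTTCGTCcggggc
CALU: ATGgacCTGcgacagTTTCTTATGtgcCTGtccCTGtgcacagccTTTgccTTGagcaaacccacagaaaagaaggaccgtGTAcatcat
GPC4: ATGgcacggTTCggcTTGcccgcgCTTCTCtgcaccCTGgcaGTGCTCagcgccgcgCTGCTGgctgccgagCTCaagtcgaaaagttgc
The third group holds a cytosolic ribosomal protein and a small inner-membrane subunit of ATP synthase, whose RNAs fell.
RPL36: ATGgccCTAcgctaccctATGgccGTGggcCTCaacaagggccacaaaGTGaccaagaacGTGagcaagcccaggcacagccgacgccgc
ATP5ME: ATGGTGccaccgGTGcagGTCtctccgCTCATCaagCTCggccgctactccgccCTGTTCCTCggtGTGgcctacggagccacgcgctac
Codons for the acidic residues aspartate and glutamate were absent from the first 30 codons of AASS and PDPR, and LARS2 had 2. CANX had 7 and CALU 3. LMAN1 had 0, GPC4 1, RPL36 0 and ATP5ME 0, so their absence was not particular to the matrix proteins. Genes other than AASS and CANX were chosen for display after their values were seen.

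A few matrix enzymes had some of the highest labelled-over-control ratios among the called genes. AASS, the enzyme that starts lysine breakdown (chr7:122075647-122144280, minus strand, GRCh38), read 49.6 and 35.4 CPM in control libraries 3 and 4. It read 488 and 562 CPM in labelled libraries 2 and 3, a difference of 3.61 ± 0.29 on the log2 scale (SE, adjusted p = 2.73e-06). Values below are given in the same library order. CPS1, the entry enzyme of the urea cycle (chr2:210477682-210679107, plus strand), read 58.3 and 35.0 CPM against 419 and 390 CPM (3.11 ± 0.30, adjusted p = 2.88e-05). In both genes the labelled libraries lay several-fold above the higher control. PDPR, the regulatory subunit of pyruvate dehydrogenase phosphatase (chr16:70113626-70162537, plus strand), read 48.2 and 43.3 CPM against 321 and 276 CPM (2.71 ± 0.30, adjusted p = 5.59e-05). PDPR has near-identical pseudogene copies, so its count is uncertain. GLDC, of the glycine cleavage system, read 40.4 and 25.8 CPM against 147 and 185 CPM (2.30 ± 0.37, adjusted p = 0.00205). ALDH18A1, which makes the precursor of proline, read 229 and 257 CPM against 1068 and 773 CPM (1.93 ± 0.23, adjusted p = 7.69e-05). For each of these genes the spread within a group was small beside the gap between groups.

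Most other members of their lists did not pass the test. Of 37 tested matrix amino acid and one-carbon enzymes, 4 rose and 0 fell, with a median of 0.19. Of 25 genes of the tricarboxylic acid cycle and pyruvate dehydrogenase, PDPR alone rose, with a list median of 0.08 that became -0.04 without labelled library 2. Of 20 mitochondrial tRNA synthetases, 2 rose, with a median of 0.11 that became -0.34 without that library. LARS2, which charges tRNA with leucine, read 146 and 194 CPM against 702 and 589 CPM (1.93 ± 0.24, adjusted p = 0.000118). IARS2, its counterpart for isoleucine, read 255 and 327 CPM against 937 and 951 CPM (1.70 ± 0.21, adjusted p = 0.000161). Both were above their controls by more than the replicates differed. Of the 7 members that rose across the mitochondrial lists, 6 were also called by the older form of the test, GLDC being the exception, and between 6 and 10 members rose without 1 library.

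Further nuclear genes with mitochondrial products were called outside the lists, in both directions, and were picked out after their values were seen. VWA8, an ATPase-like matrix protein, read 19.2 and 48.8 CPM against 132 and 93.5 CPM (1.77 ± 0.43, adjusted p = 0.0410). NNT, the transhydrogenase of the inner membrane, read 76.4 and 58.3 CPM against 168 and 292 CPM (1.75 ± 0.33, adjusted p = 0.00886). GPAM, an acyltransferase of the outer membrane itself, read 49.9 and 69.9 CPM against 158 and 204 CPM (1.59 ± 0.33, adjusted p = 0.0150). Others that rose were DHTKD1, a dehydrogenase of lysine breakdown (1.46 ± 0.34), GPD2, a glycerol phosphate dehydrogenase (1.40 ± 0.35), OPA1, the inner-membrane fusion GTPase (1.36 ± 0.31), and STARD7, a lipid carrier (0.92 ± 0.21). Their adjusted p values were 0.0359, 0.0470, 0.0306 and 0.0312. UQCC2, an assembly factor of respiratory complex III, fell, reading 76.6 and 126 CPM against 14.8 and 38.7 CPM (-2.01 ± 0.47, adjusted p = 0.0342). REXO2, an oligoribonuclease, fell too, reading 111 and 86.0 CPM against 26.3 and 35.6 CPM (-1.70 ± 0.41, adjusted p = 0.0380).

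The larger mitochondrial complexes went the other way or did not pass the test. Of 80 nuclear-encoded subunits of oxidative phosphorylation (OXPHOS), 0 rose and 9 fell, with a median of -0.62. Both labelled libraries lay below both controls for 57 of the 80, beside 22.5% of all tested genes. NDUFB7, of complex I, read 70.5 and 134 CPM against 8.52 and 24.5 CPM (-2.74 ± 0.52, adjusted p = 0.00892). ATP5ME, of ATP synthase, read 180 and 198 CPM against 44.6 and 60.0 CPM (-1.87 ± 0.32, adjusted p = 0.00334). The other 7 were NDUFA13, UQCR11, NDUFA11, ATP5MC2, NDUFA1, ATP5MG and ATP5MF, with log2 fold changes between -1.40 and -1.08. ATP5MG, NDUFA13 and NDUFA11 each overlap a gene without a symbol that was also called lower, so these values are uncertain. The counts were nearly the same for ATP5MG and NDUFA13 and similar for NDUFA11. No OXPHOS subunit fell in the older form of the test, without control library 4, or after the trend of fold change on transcript length was removed.

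Mitochondrial ribosomal proteins had a median of -0.41 over 75 tested genes, and 0 were called in either direction. MRPL51 read 267 and 209 CPM against 132 and 135 CPM (-0.84 ± 0.26, adjusted p = 0.135). Among 63 genes of protein import and the outer membrane the median was -0.23, and 1 gene passed the test. That gene was TOMM40, the channel of the import complex, which fell, reading 235 and 261 CPM against 103 and 107 CPM (-1.24 ± 0.27, adjusted p = 0.0204). The 39 SLC25 carriers (median 0.05), the 23 fatty acid oxidation enzymes (-0.39) and the 23 mitochondrial proteases and chaperones (-0.16) had 0 calls. SLC25A5, an ADP/ATP carrier, read 874 and 830 CPM against 800 and 572 CPM, and HSPD1, the matrix chaperonin, read 1999 and 1479 CPM against 1538 and 1391 CPM. The SLC25 median turned negative without control library 3 (-0.09) or labelled library 2 (-0.14). The protease and chaperone median turned positive without control library 3 (0.01) or labelled library 3 (0.03).

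Most mRNAs encoded by mtDNA fell. Of 13 mtDNA-encoded mRNAs, 12 fell and 0 rose, with a median of -2.14. Beside 22.5% of all tested genes, all 13 had both labelled libraries below both controls. Together they took 6.64% and 3.97% of counts in the controls against 1.09% and 1.54% after labelling, so the controls differed from each other as well. MT-ND5, of complex I, read 5604 and 2424 CPM against 651 and 685 CPM (-2.59 ± 0.28, adjusted p = 4.24e-05). MT-CO1, of complex IV, read 10631 and 7164 CPM against 1650 and 2609 CPM (-2.07 ± 0.22, adjusted p = 4.24e-05). MT-CYB, of complex III, read 6095 and 3478 CPM against 756 and 1212 CPM (-2.29 ± 0.25, adjusted p = 4.87e-05). For each, the higher labelled library was well under the lower control. MT-ND6, the mRNA that did not pass, lies on the strand opposite the other mtDNA-encoded mRNAs. It read 1029 and 265 CPM against 47.0 and 107 CPM (-3.14 ± 0.79, adjusted p = 0.186).

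Of 14 tested mtDNA-encoded rRNAs and tRNAs, 3 fell and 0 rose. MT-RNR2, the large rRNA, read 4434 and 2316 CPM against 603 and 786 CPM (-2.29 ± 0.25, adjusted p = 4.87e-05). MT-RNR1, the small rRNA, read 1040 and 702 CPM against 200 and 219 CPM (-2.06 ± 0.24, adjusted p = 6.39e-05). MT-TL1, a leucine tRNA, read 238 and 98.5 CPM against 7.40 and 36.6 CPM (-3.10 ± 0.53, adjusted p = 0.00360). The pseudogenes MTATP6P1 and MTND2P28, nuclear copies of mtDNA on chromosome 1, also fell (-2.18 and -2.59), and reads of the mtDNA genes may be counted there. With 1 library left out, between 11 and 13 of the mtDNA-encoded mRNAs fell, the fewest without control library 3. The older form of the test called 5.

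**Figure D1:**
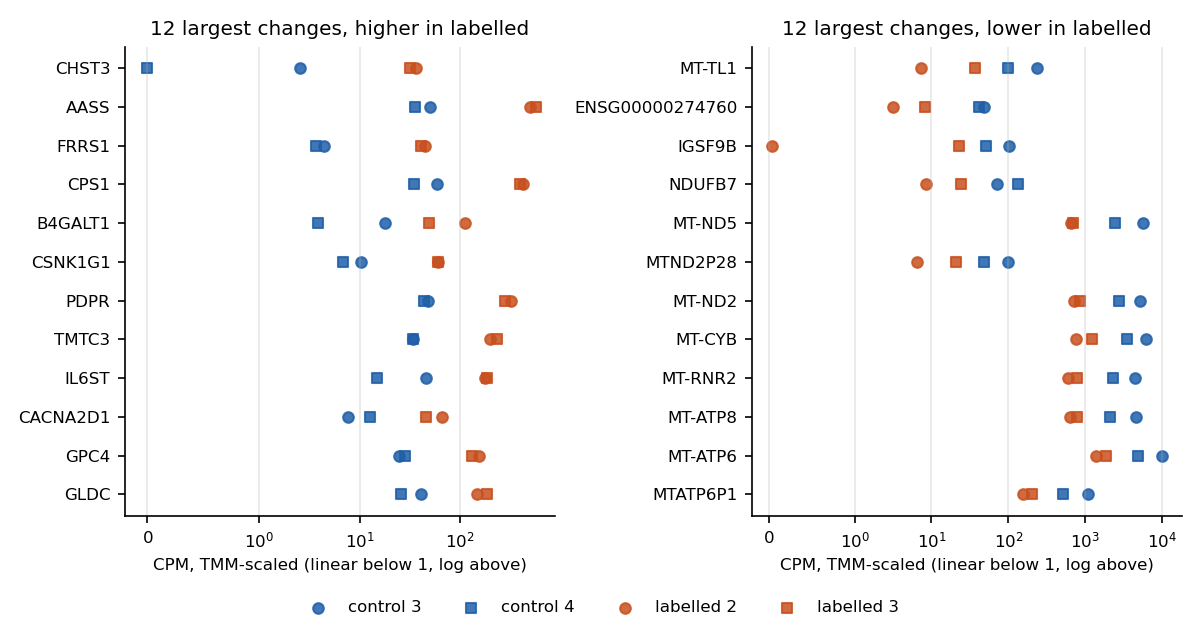
TMM-scaled CPM in each of the 4 libraries for the 12 called genes with the largest rise (left) and the 12 with the largest fall (right). The axis is linear below 1 and logarithmic above. Blue marks the controls and orange the labelled libraries; no gene shown has overlapping groups, and CHST3 is at 0 in control library 4.

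Among RNAs of ER proteins, members of each list described next rose and 0 fell. Of 50 ER chaperones and disulfide isomerases, 5 rose and 0 fell, with a median of 0.56. CANX, the membrane-bound lectin chaperone calnexin (chr5:179678628-179730925, plus strand), read 1413 and 1288 CPM against 5564 and 3938 CPM (1.82 ± 0.19, adjusted p = 4.24e-05). LMAN1, a cargo receptor for glycoproteins, read 116 and 97.3 CPM against 493 and 446 CPM (2.14 ± 0.25, adjusted p = 7.43e-05). CALU, a calcium-binding protein of the lumen, read 314 and 345 CPM against 1304 and 1059 CPM (1.85 ± 0.21, adjusted p = 6.19e-05). In these genes both labelled libraries lay well above the higher control, and the replicates of a group differed less than the groups. UGGT1, which checks glycoprotein folding, and TMX3, a membrane-bound disulfide isomerase, also rose (1.75 ± 0.29 and 1.71 ± 0.40, adjusted p = 0.00284 and 0.0342).

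The machinery that brings proteins into the ER had 3 of 44 members called, all higher, and a median of 0.06. SPCS3, of the signal peptidase, read 167 and 163 CPM against 634 and 616 CPM (1.92 ± 0.23, adjusted p = 7.64e-05). SSR1, of the translocon-associated complex, and SEC61A1, the channel itself, rose by 1.33 ± 0.26 and 1.25 ± 0.26 on the log2 scale (adjusted p = 0.0113 and 0.0163). Of 47 genes of N-glycosylation, 7 rose and 0 fell, with a median of 0.45. STT3B, a catalytic subunit of oligosaccharyltransferase, read 141 and 144 CPM against 405 and 416 CPM (1.53 ± 0.24, adjusted p = 0.00177). The other 6 were MAN2A1, GANAB, EDEM3, MAGT1, MAN1A2 and RPN1, with log2 fold changes between 0.96 and 1.84.

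Of 51 genes of ER-associated degradation, GPI anchors and other ER membrane enzymes, 5 rose and 0 fell, with a median of 0.51. TMTC3, an ER mannosyltransferase, read 33.8 and 33.9 CPM against 196 and 230 CPM (2.65 ± 0.34, adjusted p = 0.000175). CERS6, a ceramide synthase, read 49.1 and 66.2 CPM against 236 and 262 CPM (2.11 ± 0.30, adjusted p = 0.000622). PIGK, which attaches GPI anchors, ERLIN2, of ER membrane domains, and SEL1L, of the degradation complex, rose by 2.08, 2.02 and 2.01. Cholesterol and fatty acid synthesis had 8 of 45 members called, all higher, and a median of 0.44. SCD, the ER desaturase that makes oleate, read 784 and 912 CPM against 2335 and 2007 CPM (1.36 ± 0.19, adjusted p = 0.000509). SOAT1, which esterifies cholesterol, read 73.9 and 43.6 CPM against 208 and 190 CPM (1.75 ± 0.32, adjusted p = 0.00659). CYP51A1, ELOVL5, HACD3 and LBR were also among those that rose, by 1.41, 1.12, 0.94 and 0.90. CYP51A1 overlaps a gene without a symbol that was also called higher with nearly the same counts, so its value is uncertain.

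Some RNAs for proteins that leave the ER rose, while most members of these lists did not pass the test. Of 47 genes of coats and cargo receptors between ER and Golgi, 6 rose and 0 fell (median 0.22): TMED7, CNIH1, TMED5, SURF4, TMED10 and KDELR1, with log2 fold changes between 1.11 and 1.58. Of 122 surface receptors and adhesion proteins, 14 rose and 0 fell, and the median of 0.78 was the highest of the lists with calls. GPC4, a cell-surface proteoglycan, read 24.6 and 28.4 CPM against 154 and 130 CPM (2.43 ± 0.39, adjusted p = 0.00183). TFRC, the transferrin receptor, read 188 and 292 CPM against 750 and 598 CPM (1.50 ± 0.24, adjusted p = 0.00244). NOTCH2, ITGB1 and CDH2, a receptor, an integrin and a cadherin, rose by 1.12, 1.31 and 1.20.

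Among 157 solute carriers outside the SLC25 family, 7 rose and 0 fell, with a median of 0.52. SLC39A10, a zinc importer, read 53.9 and 49.8 CPM against 168 and 235 CPM (1.94 ± 0.33, adjusted p = 0.00315). SLC16A1, a lactate carrier, read 259 and 295 CPM against 895 and 631 CPM (1.47 ± 0.23, adjusted p = 0.00165). Of 53 lysosomal genes, 6 rose and 0 fell, with a median of 0.58. LIPA, the lysosomal lipase, read 104 and 119 CPM against 338 and 314 CPM (1.55 ± 0.26, adjusted p = 0.00284). Among the others SCARB2, PPT1, LAMP2 and PSAP rose by 1.60, 1.40, 1.08 and 1.07. In each of these genes both labelled libraries were above both controls.

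**Figure D2:**
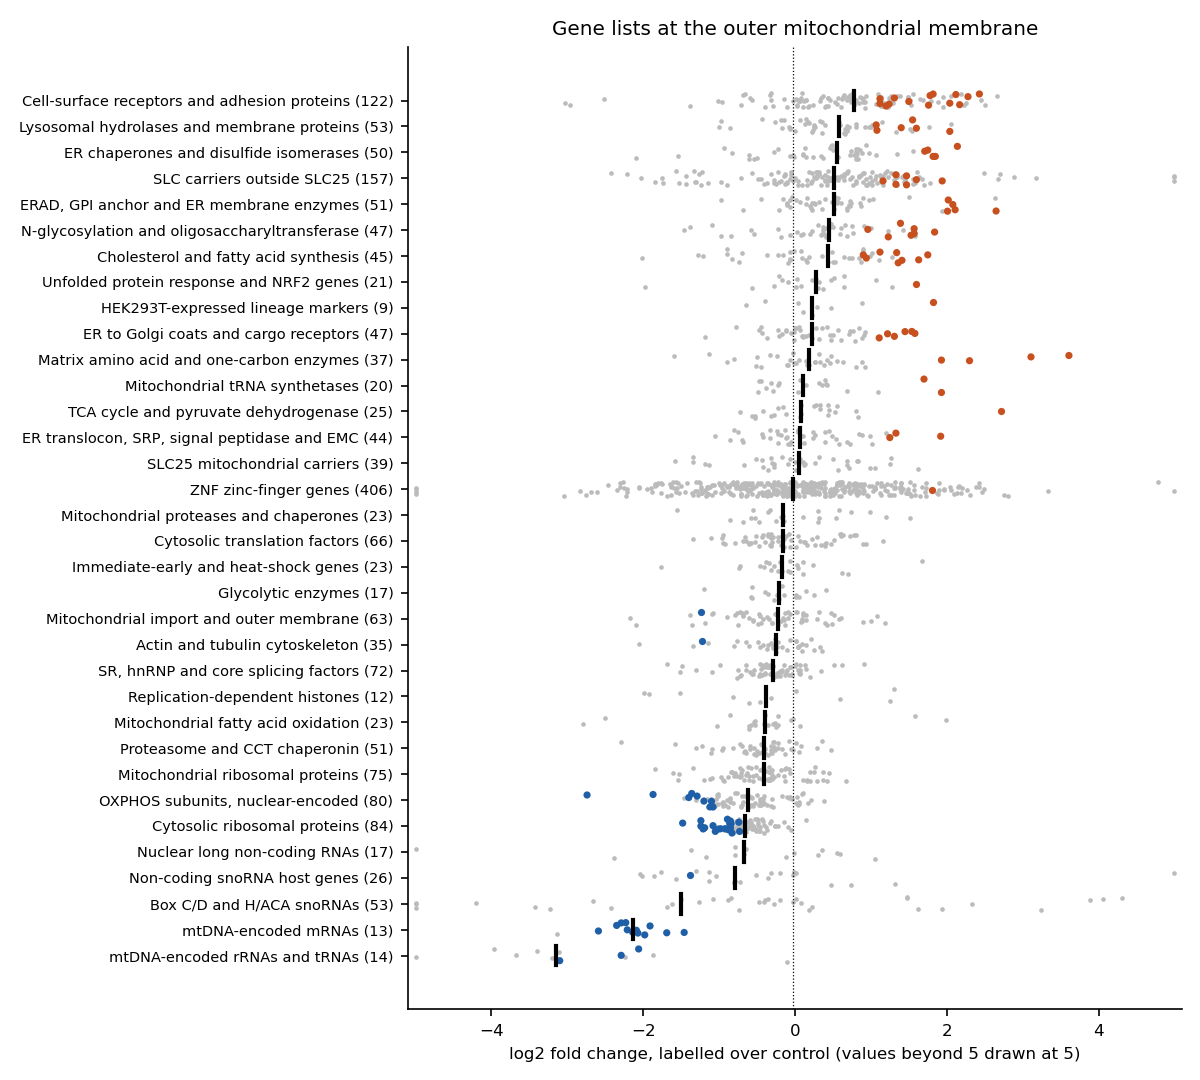
Log2 fold change, labelled over control, for the tested genes of each list (number tested in parentheses), with black bars at list medians and a dotted line at the median of all tested genes, -0.02. Grey points did not pass the test, orange points rose and blue points fell; orange points lie mostly in the surface, lysosomal and ER lists, with AASS, CPS1 and PDPR in mitochondrial lists, and blue points mostly in the mtDNA, OXPHOS and ribosomal protein lists.

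Among called genes, the largest rises outside the lists included those of membrane proteins. FRRS1, a membrane reductase, read 4.45 and 3.67 CPM against 44.8 and 41.1 CPM (3.41 ± 0.75, adjusted p = 0.0245). CSNK1G1, a casein kinase held at membranes, read 10.4 and 6.78 CPM against 60.2 and 60.4 CPM (2.80 ± 0.59, adjusted p = 0.0192). IL6ST, the shared receptor of the interleukin 6 family, read 46.0 and 14.7 CPM against 178 and 185 CPM (2.55 ± 0.40, adjusted p = 0.00161). The controls of FRRS1 and CSNK1G1 were low, and those of IL6ST differed several-fold from each other. B4GALT1, a Golgi galactosyltransferase, read 18.0 and 3.81 CPM against 112 and 49.3 CPM (2.89 ± 0.62, adjusted p = 0.0196), and CACNA2D1, a calcium channel subunit, read 7.61 and 12.7 CPM against 65.2 and 46.1 CPM (2.50 ± 0.60, adjusted p = 0.0382). Each of the last pair stayed called in 1 of the 4 fits that left out a library. AASS, CPS1, PDPR, TMTC3 and CANX passed in all 14 alternatives, as did MT-ND5, MT-ND2, MT-CYB and MT-RNR2. Of the 82 genes that rose outside the lists, PTP4A1 and an overlapping gene without a symbol had the same 4 counts and cannot be told apart. Among all calls, 3 higher and 7 lower genes had no symbol of their own. Some of these overlap called genes with similar counts, so such calls are not independent.

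Some of the cytosolic ribosomal protein genes fell. Of 84 tested, 0 rose and 19 fell, with a median of -0.66. Both labelled libraries lay below both controls for 77 of the 84, beside 22.5% of all tested genes. The 84 genes together took 9.10% and 8.95% of counts in the controls against 6.35% and 5.76% after labelling. RPL36, of the large subunit, read 700 and 708 CPM against 268 and 234 CPM (-1.48 ± 0.21, adjusted p = 0.000654). RPL31 read 1457 and 1105 CPM against 571 and 513 CPM (-1.24 ± 0.21, adjusted p = 0.00276). RPS16, of the small subunit, read 769 and 944 CPM against 384 and 357 CPM (-1.21 ± 0.21, adjusted p = 0.00406). In all of these the labelled libraries were close to each other and below both controls. The other 16 fell by between 0.73 and 1.24 on the log2 scale. Without control library 3 or 4, 3 or 5 of the 84 fell, and the older form of the test called RPL36 alone. Ribosomal protein genes have many processed pseudogenes, which can take part of their reads.

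Other lists of cytosolic and nuclear proteins had medians closer to that of all tested genes than the ribosomal proteins did. Translation factors (66 tested, median -0.16), glycolytic enzymes (17, -0.21) and the proteasome and CCT chaperonin (51, -0.41) had 0 calls. So did splicing factors (72, -0.29) and immediate-early and heat-shock genes (23, -0.17), where 1.52% of all tested genes were called. Both labelled libraries lay below both controls for 32 of the 51 proteasome and CCT genes and 40 of the 72 splicing factors. For translation factors, glycolytic enzymes and immediate-early and heat-shock genes this held for 21, 7 and 7, beside 22.5% of all tested genes. EEF1A1, an elongation factor and one of the most abundant RNAs, read 6932 and 7034 CPM against 5592 and 5370 CPM (-0.35 ± 0.16, adjusted p = 0.344). GAPDH, of glycolysis, read 2371 and 2414 CPM against 1575 and 1619 CPM (-0.58 ± 0.17, adjusted p = 0.110). Both were lower in each labelled library, without passing the test. Among 35 actin and tubulin genes only MYL6, a myosin light chain, was called, and it fell (-1.22 ± 0.22, adjusted p = 0.00512). Among 406 zinc-finger genes only ZNF638 was called, and it rose, reading 153 and 97.1 CPM against 441 and 438 CPM (1.81 ± 0.26, adjusted p = 0.000638).

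Non-coding RNAs rarely passed the test. The 17 nuclear long non-coding RNAs had a median of -0.67 with 0 calls. Both labelled libraries lay below both controls in 5 of the 17, beside 22.5% of all tested genes. The median of these RNAs was -0.02 with genes at 0 in a library left out. It was -0.12 without the first control or without the first labelled library. The 53 snoRNAs had a median of -1.50 with 0 calls, and 23 lay below both controls in both labelled libraries, beside the same 22.5%. The snoRNA median was -0.42 with genes at 0 left out, -0.97 without the first control and -8.25 without the second labelled library. Both medians, of long non-coding RNAs and of snoRNAs, therefore rest on genes with zeros. By GENCODE type, antisense RNAs and lincRNAs had medians of -0.26 and -0.20, and sense-overlapping and sense-intronic RNAs medians of 0.28 and 0.11. TUG1, a nuclear long non-coding RNA, read 151 and 157 CPM against 172 and 288 CPM (0.56 ± 0.29, adjusted p = 0.406). Of 26 snoRNA host genes SNHG1 fell, reading 145 and 132 CPM against 52.1 and 54.7 CPM (-1.38 ± 0.33, adjusted p = 0.0382), with a list median of -0.79. Of the 52 tested genes that GENCODE types as snoRNA, 44 had a 0 in at least 1 library. Markers of the unfolded protein response and of NRF2 had 1 of 21 members called, SLC7A11, the cystine carrier, which rose (1.60 ± 0.37, adjusted p = 0.0327).

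Fold change followed transcript length. Genes that rose had a median annotated transcript of 4677 nt, those that fell 956 nt and all tested genes 2769 nt. Of 1633 genes of 1000 nt or less, 0 rose and 37 fell, and their median fold change on the log2 scale was -0.52. Of 1870 genes longer than 6000 nt, 47 rose and 0 fell, with a median of 0.37. Length is therefore a measured property that moves with the lists: the median was 3350 nt in the ER, membrane and lysosomal lists, 813 nt in the ribosomal proteins and 900 nt in the OXPHOS subunits. After the trend on length was removed, 88 genes rose and 23 fell, of which 83 and 19 were among the original calls. By list, 43 ER, membrane and lysosomal genes and 7 nuclear-encoded mitochondrial genes were called higher under this setting. Its lower calls held 11 mtDNA-encoded mRNAs, 1 ribosomal protein and 0 OXPHOS subunits. The medians of the ribosomal proteins and OXPHOS subunits became -0.26 and -0.29. That of the ER, membrane and lysosomal lists together went from 0.50 to 0.46. Single lists among them went both ways, surface receptors from 0.78 to 0.61 and N-glycosylation from 0.45 to 0.55. The ER chaperones went from 0.56 to 0.55, but their median transcript of 2774 nt was already close to the 2769 nt of all tested genes.

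Stretches rich in middle-T codons encode hydrophobic segments, and windows were counted over the whole coding sequence, beyond the starts printed above. A window of 20 codons holding at least 14 such codons occurred in 52 of the 149 higher genes with an annotated coding sequence (34.9%). It occurred in 4 of 53 lower genes (7.55%) and in 1069 of 12213 tested genes (8.75%). Coding sequences that did not begin with ATG, or were very short, were left out. The lower genes MT-ND1, MT-ND2, MT-ND3, MT-ND5 and RPL41 were among those left out, so the share of lower genes does not cover them. Within the first 40 codons, 10 codons in a row with at least 7 of them occurred in 36.2%, 11.3% and 11.3% of the same groups. Acidic codons averaged 1.89 in the first 30 codons of higher genes, 2.62 in lower genes and 3.23 in all tested genes, while arginine codons averaged 2.01, 2.17 and 2.05. Among the genes with printed starts, the richest window held 11, 10 and 11 such codons in the matrix proteins AASS, PDPR and LARS2. It held 14 in CANX and LMAN1 but 9 in CALU and 11 in GPC4, so these ER, secretory and surface genes lay on both sides of 14. In RPL36 and ATP5ME it held 8 and 9. These window sizes were set after the values were seen, and the shares are descriptions without a test.

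Fold change varied with this feature at each transcript length. Among the genes of longest transcript, above 3760 nt, those with such a window had a median log2 fold change of 0.70 (513 genes, 34 of them higher, 6.63%). Those whose richest window held 9 or fewer had a median of 0.20 (1124 genes, 9 higher, 0.801%). Between 2048 and 3760 nt the medians were 0.45 and -0.08, and at 2048 nt or less -0.13 and -0.40. By these medians, genes with the window were higher at each length, and longer genes were higher with and without it. At 2048 nt or less, 2 of 204 genes with the window rose and 4 fell, against 1 and 27 of 1611 with 9 or fewer. Genes were split by transcript length and not by coding length, and a longer coding sequence holds more windows.

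**Figure D3:**
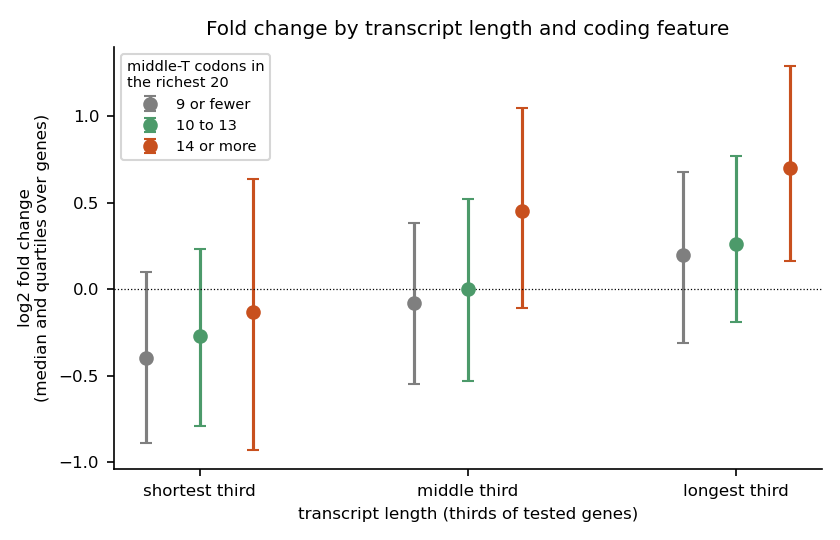
Median log2 fold change with quartiles over genes, by transcript length (at most 2048 nt, up to 3760 nt and above) and by the number of middle-T codons in the richest window of 20. Medians run from -0.40 for short transcripts with 9 or fewer to 0.70 for long transcripts with 14 or more.

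Many genes were at 0 in 1 replicate of a pair while the other held many counts. Among 12739 genes averaging at least 100 counts in the controls, 533 (4.18%) were at 0 in exactly 1 library, 179 of them in control library 3 and 354 in control library 4. Among 12694 such genes in the labelled libraries, 593 (4.67%) were, 273 in labelled library 2 and 320 in labelled library 3. The median count in the other library was 265 and 342, and the highest 1001 and 1672. In the 4 libraries with APEX2 in the nucleus (NLS), which were made with another kit, 0 of 11976 and 0 of 11433 such genes showed this.

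Zeros depended on level. In the controls, 31.0% of genes averaging 100 to 200 counts were at 0 in 1 library, 6.71% of those averaging 200 to 300, and 0 of 6917 averaging 1000 or more. In the labelled libraries the shares were 32.4% and 19.1%, with 0 of 7585 at 1000 or more. At 30 to 100 counts they were 72.1% and 68.4%, against 0.0374% and 0% in the NLS groups. Low counts were also scarce in these libraries. Between 76.4% and 85.5% of genes with any count had over 100, compared with 35.2% to 47.7% in the NLS libraries.

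**Figure D4:**
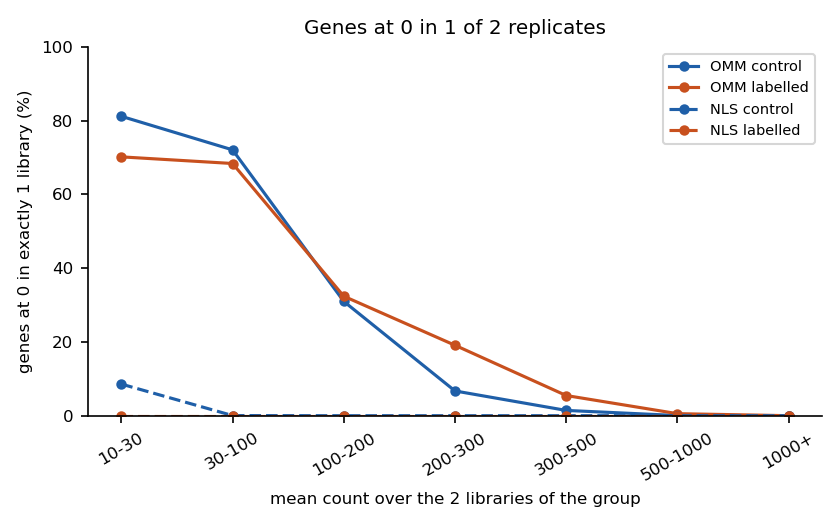
Percent of genes at 0 in exactly 1 of the 2 libraries of a group, by the mean count of the gene in that group, for OMM (solid) and NLS (dashed) controls (blue) and labelled libraries (orange). The OMM lines fall from above 70% to 0 as the mean count rises, and the NLS lines are at or near 0 from 30 counts upward.

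Most of the genes at 0 had counts elsewhere in the series. Of 1084 genes at 0 in 1 replicate of either group, 90.2% had counts in all 4 NLS libraries, compared with 98.9% of all genes averaging 100 in a group. Their median mean count there was lower, at 61.6 against 488. They were protein-coding in 63.0% of cases, against 88.5%. SPAG16, an axoneme protein, held 1001 and 0 counts in the controls against 890 and 620 after labelling. BCL2L2, a survival protein of mitochondria, held 870 and 237 counts in the controls against 0 and 1672 after labelling. RAB3A, a vesicle GTPase, held 95 and 414 counts against 1186 and 0. In each of these a single library stood apart from its partner, and in the NLS libraries SPAG16 held 159 to 343 counts, BCL2L2 414 to 531 and RAB3A 33 to 204. GNAL, a G protein subunit, held 993 and 0 counts against 1038 and 1813, and TRPC1, a cation channel, 280 and 0 against 0 and 1201.

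Few calls of this test involved a 0. Of the 1084 genes, 785 were tested and 0 were called. Among all genes averaging 100 in a group, 13407 were tested, and 151 were called higher and 69 lower. A 0 beside many counts makes the spread within a group wide, so calls among the 785 were unlikely in advance. At an unadjusted p, over all tested genes, 1042 were higher and 902 lower under 0.05. Of all 220 calls, CHST3 alone had a 0. CHST3, a Golgi sulfotransferase, held 100 and 0 counts in the controls against 1917 and 1135 after labelling, a log2 fold change of 4.66 ± 1.07 (adjusted p = 0.0288). It was called in 6 of 13 alternatives. IGSF9B, a cell adhesion protein, fell with 3950 and 1793 counts against 2 and 824 (-3.02 ± 0.71, adjusted p = 0.0359), and was called in 7 of 14.

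Over all 4 libraries, 12844 genes averaged at least 100 counts. Of these 11626 had counts in all 4, 937 were at 0 in exactly 1, 93 were at 0 in both controls and 31 in both labelled libraries. GHR, the growth hormone receptor, held 0 and 0 counts in the controls against 584 and 279 after labelling (adjusted p = 0.260). With each 0 set to a floor of 3 counts, GHR was 116-fold higher. PLCXD2 held 0 and 0 against 312 and 945, 198-fold higher at that floor (adjusted p = 0.156). MT-TF, the phenylalanine tRNA of mtDNA, held 631 and 731 against 0 and 0, 265-fold lower at that floor (adjusted p = 0.0850). ANXA1, an annexin, held 499 and 492 against 0 and 0, 192-fold lower at that floor (adjusted p = 0.152). These folds are not lower limits, because the floor covers counting error only. In these libraries a 0 stood beside up to 1001 counts in the other control and up to 1672 in the other labelled library. None of the 291 tested genes with a group at 0 was called.

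**Figure D5:**
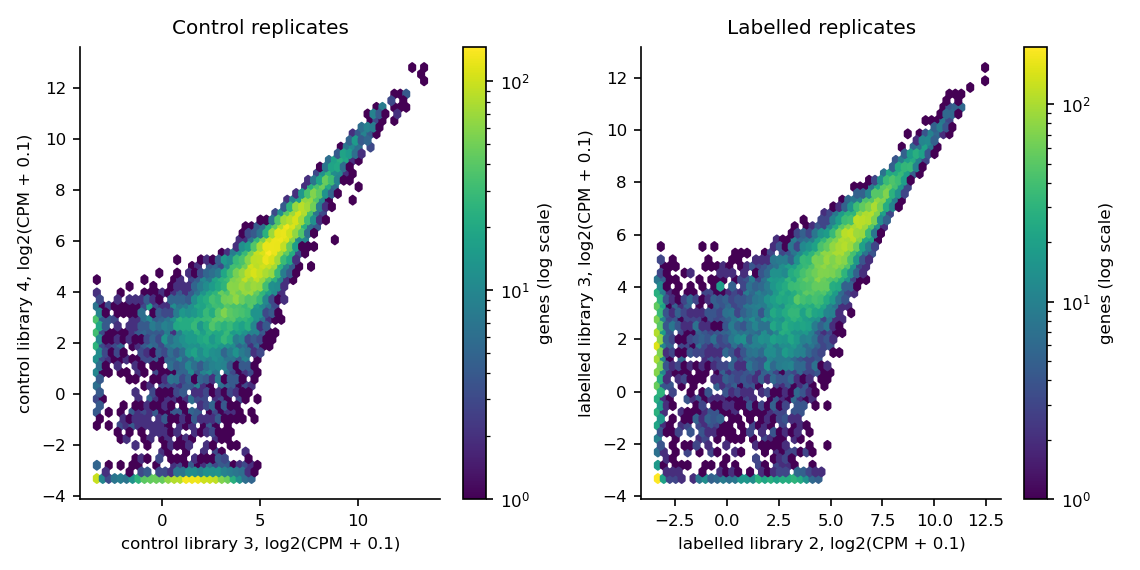
Log2(CPM + 0.1) of the 14438 tested genes in control library 4 against control library 3 (left) and in labelled library 3 against labelled library 2 (right), with colour for the number of genes. The bands along the axes are genes at or near 0 in 1 library, and the pairs draw together at high levels.

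Counted by large differences, replicates were not always the closest pair. Genes differing at least 32-fold numbered 703 of 12739 between the controls and 862 of 12694 between the labelled libraries. Between groups, control library 3 and labelled library 3 differed that much at 267 of 12722 genes and control library 4 and labelled library 2 at 1515 of 12894. At a mean of 1000 counts or more 0 genes did so within a group. There the median absolute log2 ratio was 0.37 between the controls, 0.40 between the labelled libraries and 0.48 to 0.54 between groups.

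The authors' deposited table called many more genes. It held a p-value for 15314 genes, of which 1000 (6.53%) were higher and 873 (5.70%) lower at 0.05. Those in the authors' deposited table included 149 of the 151 genes called higher here and 66 of the 69 called lower, with 0 of opposite sign. CHST3 and B4GALT1, called higher here, were not called in the authors' deposited table, where their log2 fold changes were 4.74 and 2.91. MT-TL1 and IGSF9B, called lower here, were not called there either, with log2 fold changes of -2.93 and -2.74. A 0 in at least 1 library was present in 150 of the 1000 (15.0%) and 214 of the 873 (24.5%) in the authors' deposited table. The remaining 850 and 659 had counts in all 4 libraries. Among the 14438 genes tested here, a different set, 2524 had a 0 in at least 1 library. Both libraries of a group were at 0 for 124 and 175 of the genes called in the authors' deposited table, and 57 and 26 had counts in a single library. NUCKS1, an abundant nuclear protein gene higher in the authors' deposited table (0.54, p = 0.0127), had an adjusted p of 0.180 here. NPM1, of the nucleolus, was lower in the authors' deposited table (-0.72, p = 0.0205), and had an adjusted p of 0.0653 here.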

How the data were processed

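Read counts per gene were deposited by the authors for 4 OMM libraries. Per the submitters' processing notes, the tools were Trimmomatic, STAR, SAMtools, bedtools, HTSeq and DESeq2. Whether counting used strand, and tool versions, were not given in the sources used here, so overlapping, antisense and duplicated genes are uncertain. Per the labels, libraries were grouped by the compartment and arm in their column names. The numbers in those names (controls 3 and 4, labelled 2 and 3) are not those of the sample titles, and 4 further count columns matched no sample and were not used. A log2 fold change and a p-value per gene were deposited by the authors as well. Rerunning DESeq2 1.42.0 with its filtering set for 0.05 matched 100.0% of these fold changes within 0.01, and its adjusted p matched 99.99% of the deposited p-values within 1%, which are therefore adjusted.

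The test was that of edgeR 4.0.16 (R 4.3.3), with TMM scaling (factors 0.936 to 1.05), filterByExpr with a minimum count of 10, robust glmQLFit with legacy=FALSE and glmQLFTest, two-sided, with Benjamini-Hochberg adjustment over 14438 genes at 0.05. The software default is legacy=TRUE, which was run as an alternative and called far fewer genes, so both counts are printed. Standard errors (SE) are the log2 fold change over the root of its F statistic. CPM values are TMM-scaled, and the prior count was 0.125. Gene types, transcript lengths and coding sequences came from GENCODE 29 on GRCh38, where 58396 of 60664 identifiers were found. For each gene 1 transcript was used: the principal one, or else that with the longest coding sequence, if it began with ATG. Genes without a usable coding sequence took their longest transcript. EIF4G2, for example, was given 557 nt, all of it coding, so the length of a single gene is uncertain. The script was tested on simulated counts.

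The members and the 35 gene lists were chosen with earlier results of these data known, so a list's direction is no independent evidence. Lists of proteins were limited to protein-coding genes after values were seen. Named genes were the 12 largest changes in each direction among called genes whose groups did not overlap and whose mean log2 CPM was 3 or more. Also named were called members or the 3 most abundant members of a list, and the 3 highest counts beside a 0 in each library. The rest were the 6 most abundant genes, AASS, CPS1 and CANX, and the 3 most abundant genes per direction called by the authors only. Alternatives were other scalings, filters and tests and leaving out each library. Removal of a lowess trend on transcript length or GC content (span 0.3) was chosen after seeing the data. A few items are not reported here.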

Additional observations from a re-analysis of the deposited data

How the results depend on the processing

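Against 151 genes higher and 69 lower, the counts were 278 and 160 with no low-count filter, 100 and 38 without robust estimation, 20 and 8 with legacy quasi-likelihood and 1007 and 879 with DESeq2. With the length trend removed they were 88 and 23, which moved the share of higher genes among calls from 68.6% to 79.3%. Genes lower numbered 118 when genes with a 0 were left out and 117 with limma-voom. The cause of these shifts was not tested, except that no filter and the removal of zeros changed the number of genes tested to 19296 and 11914. With RLE scaling, library size alone and the GC trend removed the counts stayed within 1.5 times. Leaving out 1 library gave between 28 and 247 higher and between 20 and 172 lower, and the lone library of a group was then assumed to vary like the other group. Of 25 genes followed singly, 0 changed sign, 12 were called with each library left out and 9 under every alternative. The 25 were the 12 largest called changes in each direction and CANX. They were picked with groups that did not overlap, so leaving out a library could hardly change a sign. Of 350 list medians under alternatives, 96 moved by more than the spread between the labelled libraries. Of the 350, 14 changed sign, in 8 lists: the mitochondrial tRNA synthetases, TCA genes, SLC25 carriers, mitochondrial proteases, actin and tubulin, histones, zinc-finger genes and markers of other cell types. With a mean of at least 20 counts, 2363 control and 1924 labelled genes were at 0 in 1 replicate, and with 500 they were 1 and 11. No paired analysis was possible because the columns of the groups share 1 replicate number, 3. With 2 libraries a group, a p that misses the threshold leaves a gene undecided. By counting error alone a 0 allows up to 3 counts, and the zeros beside high counts show that more may be missed.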
